A study of Homo sapiens with 18 samples.

Results

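The 52 genes described here act in mitosis. They encode the motors and assembly factors of the spindle, the proteins of the centromere and kinetochore, the spindle checkpoint, the chromosomal passenger complex, the central spindle and cytokinesis machinery, and the kinases, phosphatases and ubiquitin ligase subunits that carry cells into and out of mitosis. The genes were taken by name from the 62703 genes of the deposited tables, each symbol matching exactly 1 Ensembl identifier, and all 52 passed the filter on low counts in every line. KIF11, TPX2, CIT and HJURP are among the targets that the study placed in its NEAT1-driven network of competing RNAs; it chose them on the AMO1 libraries, so their AMO1 values are not independent evidence. The question asked of the data was how these 4 targets moved with NEAT1 beside the other 48 mitotic genes.

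The data are stranded total RNA-seq libraries of AMO1, H929 and LP1, which are human multiple myeloma cell lines, that is, cultured tumour plasma cells. Each line had 3 libraries labelled SCR (a scrambled control gapmeR) and 3 labelled gN1E (a gapmeR against NEAT1), both given at 5 µM by gymnosis, the uptake of oligonucleotide without a transfection agent, and collected at 48 h. A gapmeR is a short antisense oligonucleotide that lets RNase H cut the RNA it pairs with, and NEAT1 is the long non-coding RNA that builds nuclear paraspeckles. The labels do not say whether replicate letters were separate cultures, so p-values measure the spread between these libraries.

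The names written in the tables do not follow the sample labels: what is labelled SCR is named gN1E there and the reverse, and H929 and LP1 are likewise swapped. NEAT1 itself went against the label. In the libraries labelled AMO1, NEAT1 stood at 493, 576 and 539 CPM (reads counted for the gene relative to the library's total, scaled by TMM normalisation) under gN1E and at 78.8, 81.7 and 94.7 CPM under SCR. In those labelled H929 it stood at 581, 482 and 564 CPM under gN1E and at 84.4, 75.9 and 83.5 CPM under SCR. In those labelled LP1 it stood at 605, 613 and 771 CPM under gN1E and at 122, 157 and 174 CPM under SCR. NEAT1 was thus 4.4-fold to 6.67-fold higher in the libraries labelled gN1E, without overlap. Every log2 fold change below is the libraries labelled gN1E minus those labelled SCR, so a positive value means higher where NEAT1 was high. Total counts ran from 28061606 to 69937229 per library (median 53807613), and the 8 plasma cell markers examined were above 1 CPM in all lines while the 4 B cell markers were below it. The summed plasma cell markers of H929 were 17200 to 18400 CPM under gN1E and 15400 to 16400 CPM under SCR, and those of LP1 6830 to 7030 and 6560 to 6820 CPM. The 4 myeloid markers of LP1 summed to 3.3 to 5.72 and 6.46 to 8.7 CPM, and the 4 T cell markers summed to 22.3 to 26.7 and 26.5 to 28.7 CPM in AMO1 and to 9.37 to 12.8 and 12.7 to 13.7 CPM in LP1; their part in the results was not tested.

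As background, the spindle is a bipolar array of microtubules whose plus ends attach to kinetochores, protein platforms that form on centromeric chromatin marked by the histone variant CENPA. The checkpoint holds the anaphase promoting complex inactive until every kinetochore is attached, after which CDC20 activates the complex, securin and cyclin B are degraded and the chromatids part. Transcripts of most of these genes rise together in G2 and mitosis under factors that act on paired promoter elements, the CHR and the CCAAT box, and their summed level is widely used as a mark of proliferation, in myeloma too.

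KIF11, TPX2 and CIT share a run of letters with NEAT1, and these sequences are shown because the same 3 genes had the highest AMO1 fold changes of the set. Each run of 11 bases in NEAT1 was scored on the 14772 genes outside the set with a mean of at least 1 CPM. The trend of the AMO1 log2 fold change with genomic span was first removed. The remainder was averaged over the genes carrying the run on their transcribed strand. That mean was divided by the spread expected for that many genes, and runs with fewer than 20 carriers were left out. The best run had 259 carriers, with a mean AMO1 log2 fold change of 0.328. It was extended to 15 bases (chr11:65425851-65425865, hg38, plus strand). The run at the same NEAT1 position scored best in each line when the lines were scored alone. The capitals below mark the 15 bases in NEAT1 and, in the mitotic genes, the longest run of the same letters, each read 5′ to 3′ on the transcribed strand from the hg38 genome.
NEAT1 segment: TTTTGTGGTCACTGT
KIF11, chr10:92613203-92613232, plus strand, intron 7 of 21: gacaaaatTTTTGTGGTCACTGggtgatta
TPX2, chr20:31777695-31777724, plus strand, intron 9 of 17: gtgtagcaTTTGTGGTCACTGTttataata
CIT, chr12:119857606-119857634, minus strand, coding exon 4 of 48: tcttgtaggTTGTGGTCACTttgctgaag
HJURP, chr2:233851879-233851907, minus strand, intron 3 of 8: ggttcctctcTGTGGTCACaggtcaagga
KIF11 and TPX2 shared 14 bases with the segment, CIT 11 bases and HJURP 9 bases. The remaining genes ran from 7 to 11 bases, with ASPM and CDC25B at 11.

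KIF11, the bipolar kinesin that pushes the spindle poles apart, lies at chr10:92574105-92655395 (hg38). In AMO1 it had 178, 172 and 185 CPM under gN1E and 117, 133 and 130.1 CPM under SCR (letters A, C and D). In H929 it had 159, 161 and 158 CPM under gN1E and 122, 125 and 132 CPM under SCR (letters A, B and C). In LP1 it had 133, 129.7 and 129 CPM under gN1E and 118, 120.0 and 124 CPM under SCR (letters A, B and D). The 3 gN1E libraries lay above the 3 SCR libraries in every line, with the narrowest gap in LP1. The log2 fold change was 0.50 (SE 0.059, adjusted p = 1.85e-05) in AMO1 and 0.33 (SE 0.0473, adjusted p = 1.77e-05) in H929, both past the threshold, and 0.11 (SE 0.0463, adjusted p = 0.283) in LP1, by the quasi-likelihood test of edgeR, with p-values adjusted after Benjamini and Hochberg over all genes tested.

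TPX2, which activates Aurora kinase A and nucleates microtubules around chromatin, lies at chr20:31739271-31801805. In AMO1 it had 212, 199 and 214 CPM under gN1E and 169, 173 and 179 CPM under SCR. In H929 it had 217, 207 and 206 CPM under gN1E and 166, 183 and 175 CPM under SCR. In LP1 it had 282, 279 and 264 CPM under gN1E and 282, 293 and 302 CPM under SCR. The groups did not overlap in AMO1 or H929 and overlapped in LP1, where the mean was lower under gN1E. The log2 fold change was 0.27 (SE 0.0533, adjusted p = 0.00732 from edgeR) in AMO1, 0.27 (SE 0.0483, adjusted p = 0.00053) in H929 and -0.09 (SE 0.0474, adjusted p = 0.461) in LP1. Without the library labelled AMO1 gN1E D, TPX2 was not called in AMO1 (edgeR adjusted p = 0.0909, log2 fold change 0.25).

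CIT encodes citron kinase, which organises the midbody at the end of cytokinesis, and lies at chr12:119685791-119877320. In AMO1 it had 117, 114 and 116 CPM under gN1E and 85.0, 87.5 and 93.3 CPM under SCR. In H929 it had 101, 99.3 and 100.2 CPM under gN1E and 73.8, 78.5 and 76.7 CPM under SCR. In LP1 it had 92.8, 91.1 and 94.9 CPM under gN1E and 82.3, 90.2 and 89.5 CPM under SCR. The groups did not overlap in any line, and in LP1 the lowest gN1E library was within 1 CPM of the highest SCR library. The log2 fold change was 0.38 (SE 0.0565, adjusted p = 0.000284 from edgeR) in AMO1, 0.39 (SE 0.049, adjusted p = 2e-06) in H929 and 0.09 (SE 0.0504, adjusted p = 0.471) in LP1.

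HJURP, the chaperone that loads CENPA onto centromeres, lies at chr2:233833416-233854566. In AMO1 it had 167, 159.8 and 163 CPM under gN1E and 143, 142 and 146 CPM under SCR. In H929 it had 139, 144 and 141 CPM under gN1E and 129, 133 and 132 CPM under SCR. In LP1 it had 132, 127 and 127 CPM under gN1E and 126, 131 and 127 CPM under SCR. The groups were separate in AMO1 and H929 and overlapped in LP1, and HJURP did not pass in the fit whose values follow, although some other fits called it in AMO1. The log2 fold change was 0.18 (SE 0.0518, adjusted p = 0.0831 from edgeR) in AMO1, 0.11 (SE 0.046, adjusted p = 0.209) in H929 and 0.01 (SE 0.0464, adjusted p = 0.973) in LP1.

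**Figure D1:**
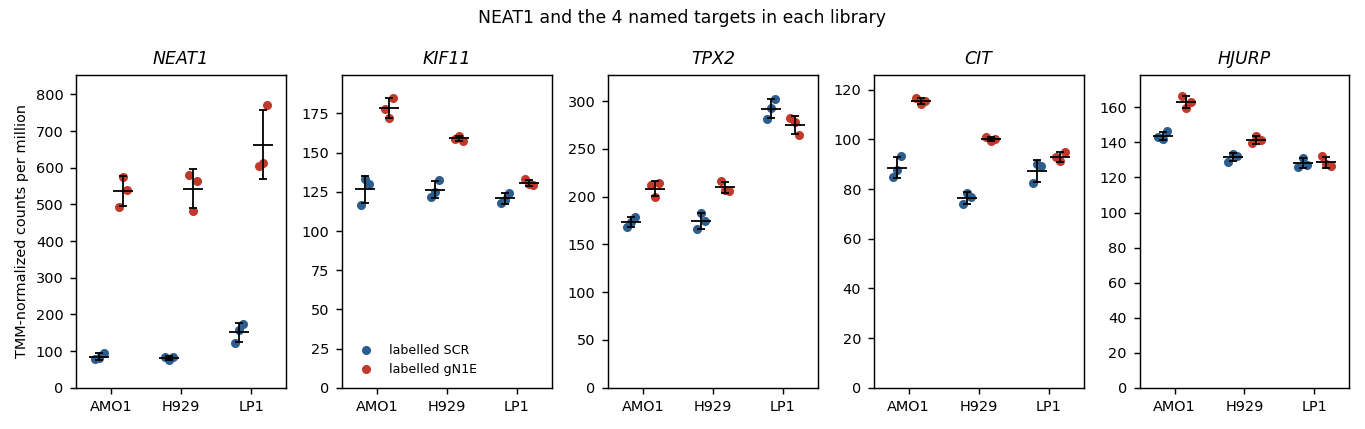
TMM-normalised CPM of NEAT1 and the 4 named targets in each of the 18 libraries, by cell line label (horizontal axis) and gapmeR label (colour); points are libraries, horizontal bars the mean and whiskers the SD of 3 libraries. KIF11, TPX2 and CIT are clear of the SCR libraries in AMO1 and H929, where KIF11 averages 178 against 127 CPM and 159 against 126 CPM, and close to them in LP1.

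Over the whole set, 3 of 52 genes passed the threshold in AMO1 (KIF11, CIT and TPX2, all higher), against 1.64% of all 22933 genes called higher and 0.419% called lower. In H929, 4 genes rose (CIT, KIF11, KIF18B and TPX2) and CDK1 fell, against 3.7% of 23499 genes called higher and 1.77% called lower. In LP1, 0 of 52 passed edgeR's quasi-likelihood test, against 0.656% of 23165 genes called higher and 0.777% called lower. By the same test 13 of the 52 had an unadjusted p under 0.05, 11 of them with a log2 fold change below 0, and limma-voom and DESeq2 also called 0. The share of all genes with an unadjusted p under 0.05 is not given, here or below. Counts at that limit therefore cannot be set against the general rate. Of the other 48 genes, 0 were called in AMO1 by edgeR without the replicate block, with 9 at an unadjusted p under 0.05, and 5 with the block (ANLN, KIF2C, KIF20B, KIF4A and SGO2, values below); 2 were called in H929. With limma-voom or DESeq2, HJURP was the only gene of the 52 called beyond these (in AMO1 by DESeq2, adjusted p = 0.0243).

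The median log2 fold change of the 4 targets was 0.32 in AMO1, 0.30 in H929 and 0.05 in LP1. That of the other 48 was 0.08, 0.01 and -0.07, and that of all genes tested was -0.02, -0.01 and -0.00. Of the 52, 44 were above 0 in AMO1, 29 in H929 and 9 in LP1, where 46.5%, 47.9% and 49.7% of all genes tested were above 0; among the 12015, 13192 and 13147 other genes at least as abundant as the lowest mitotic gene, the shares were 53.1%, 52.4% and 48.3%. With scaling by library size only, 39, 20 and 17 of the 52 were above 0, but that scaling moved the medians of all genes tested too, to -0.054, -0.055 and 0.027. The median of the 52 minus that of all genes was 0.10, 0.02 and -0.07 under either scaling. Leaving out 1 library at a time, the median of the 52 ran from 0.055 (without the library labelled AMO1 SCR A) to 0.114 (without AMO1 gN1E C) in AMO1. It ran from -0.007 (without H929 gN1E B) to 0.043 (without H929 SCR C) in H929, on both sides of 0, and from -0.086 (without LP1 SCR B) to -0.036 (without LP1 gN1E D) in LP1. All of the 48 lay within 0.2 of 0 on the log2 scale in AMO1, 45 did in H929 and 47 in LP1, with a median standard error near 0.06 in AMO1 and 0.05 in the others.

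The libraries themselves were separate for a minority of the set. In AMO1, 12 of 52 genes had all 3 gN1E libraries above all 3 SCR libraries and 0 had them below, against 9.48% and 8.29% of all genes. In H929, the counts were 10 above and 2 below, against 11.3% and 10.7%. In LP1, they were 3 above and 12 below, against 9.14% and 8.93%. The 12 AMO1 genes were the 4 targets and 8 others, and the 12 LP1 genes below were all among the other 48.

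**Figure D2:**
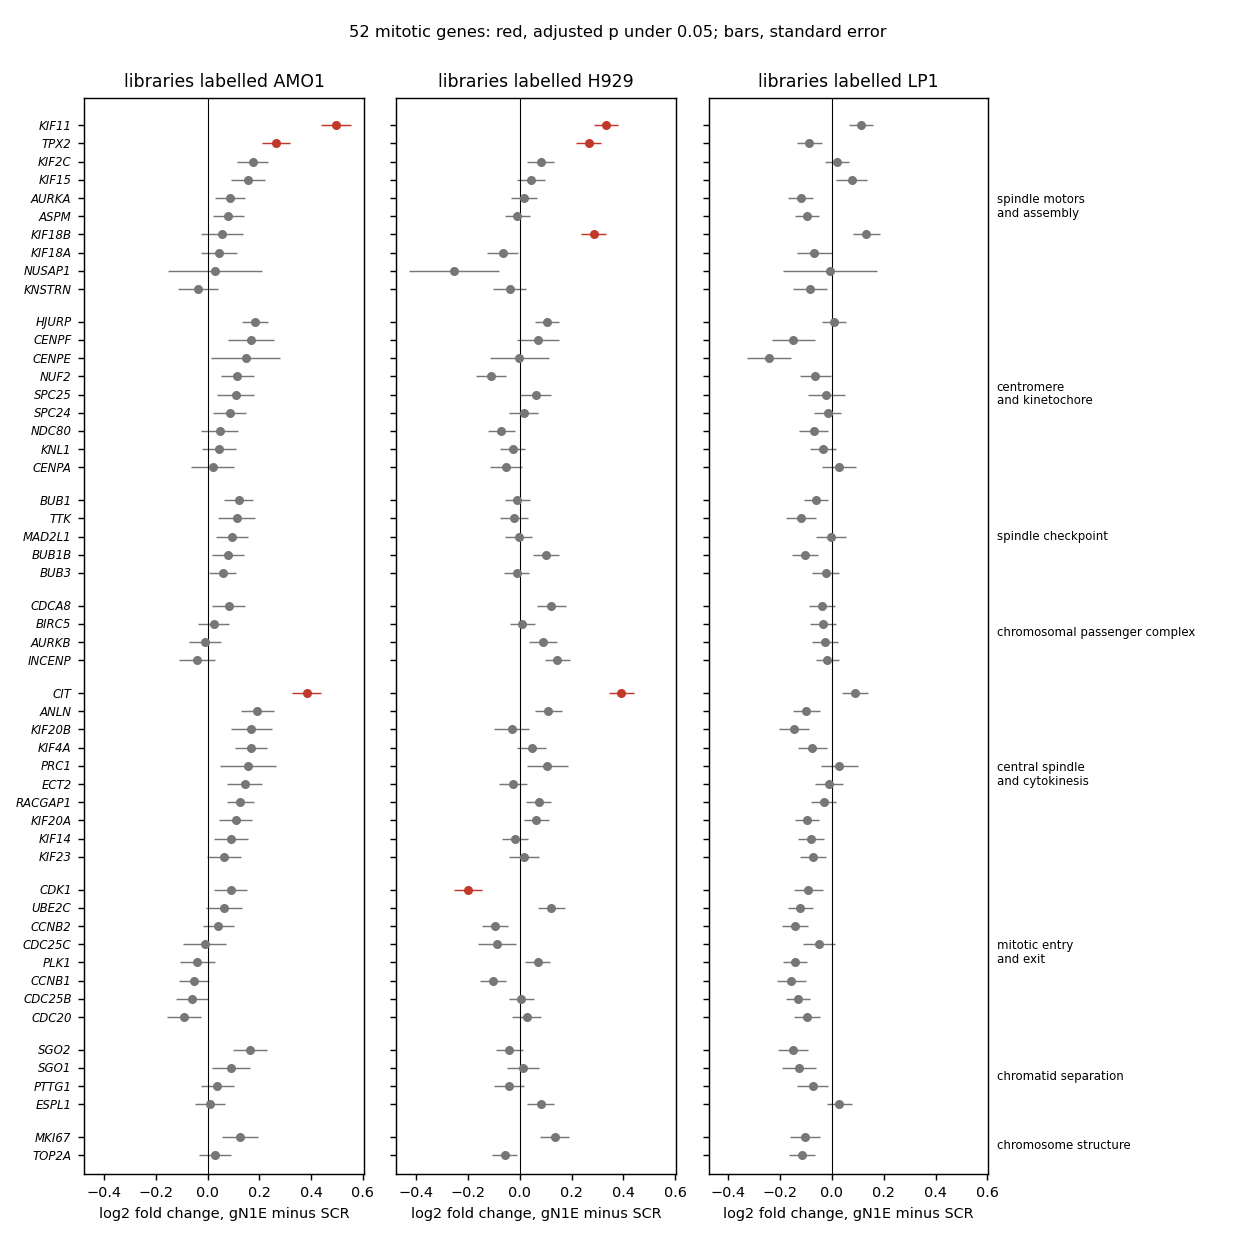
Log2 fold change (libraries labelled gN1E minus SCR, horizontal axis) of each of the 52 genes in each line, grouped by role; bars are the standard error and red marks an adjusted p under 0.05. KIF11, TPX2 and CIT stand apart on the right in AMO1 and H929, KIF18B joins them in H929 with CDK1 on the left, and in LP1 43 of the 52 genes lie left of 0.

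With the replicate letter as a block, 9 of the 52 genes passed the threshold in AMO1, all higher, against 6.08% of all genes called in either direction. They were KIF11, CIT, TPX2, HJURP (log2 fold change 0.18, adjusted p = 0.00641 from edgeR), ANLN (0.20, adjusted p = 0.0205), KIF2C (0.18, adjusted p = 0.0249), KIF20B (0.18, adjusted p = 0.0344), KIF4A (0.17, adjusted p = 0.047) and SGO2 (0.17, adjusted p = 0.0484). ANLN, KIF20B and KIF4A, like CIT, work at the central spindle and cleavage furrow, KIF2C removes tubulin from kinetochore microtubules, and SGO2 guards centromeric cohesin.

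Among the 10 spindle motors and assembly factors, 2 rose in AMO1 and 3 in H929, and 0 were called in LP1, without the block. Of all genes, 1.64%, 3.7% and 0.656% were called higher in these lines. With the block KIF2C was also called in AMO1, where 6.08% of all genes were called in either direction. KIF18B, a kinesin that shortens astral microtubules, had 119, 121 and 116 CPM under gN1E and 94.8, 103 and 94.1 CPM under SCR in H929. Its libraries were separate there, and the log2 fold change was 0.29 (SE 0.05, adjusted p = 0.000375 from edgeR). In AMO1 they overlapped (0.06, adjusted p = 0.843), and in LP1 they were separate but below the threshold (0.13, adjusted p = 0.248), which was the highest value of the set there. The lowest value of the set in H929 was that of NUSAP1, a microtubule-bundling protein, at -0.26 (SE 0.173, adjusted p = 0.483). NUSAP1 shares 3133 of its 3608 exon bases with other genes on the same strand and had only 1.31 to 3.37 CPM. Whether reads in the shared bases were left unassigned was not tested, so its values are uncertain.

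Among the 9 centromere and kinetochore genes none passed the threshold in the edgeR fit of any line without the block and with the filter on low counts; in AMO1 HJURP passed with the block (adjusted p = 0.00641 from edgeR), in the joint fit of 18 libraries (adjusted p = 0.018), with the span trend removed and with DESeq2. The genes had log2 fold changes from 0.02 (CENPA) to 0.18 (HJURP) in AMO1, from -0.11 (NUF2) to 0.11 (HJURP) in H929 and from -0.24 (CENPE) to 0.03 (CENPA) in LP1. The unadjusted p was under 0.05 for 1 of them in each line. CENPE, the kinetochore motor that brings chromosomes to the equator, had 90.1, 97.1 and 88.7 CPM under gN1E and 94.98, 107 and 125 CPM under SCR in LP1, with 1 SCR library between the gN1E ones, and an SE of 0.0864 (adjusted p = 0.255). Without the library labelled LP1 SCR A it passed (adjusted p = 0.0174 from edgeR, log2 fold change -0.33), and without LP1 SCR D the value was -0.14 (adjusted p = 0.221). It also passed with no filter on low counts (adjusted p = 0.000612 from edgeR, log2 fold change -0.25). NUF2, which anchors microtubules as part of the NDC80 complex, had 83.6, 77.3 and 78.1 CPM under gN1E and 81.4, 82.6 and 94.3 CPM under SCR in H929, overlapping groups with an adjusted p of 0.309 from edgeR.

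The 5 checkpoint genes (BUB1, BUB1B, BUB3, MAD2L1 and TTK) lay between 0.06 and 0.12 in AMO1, between -0.02 and 0.10 in H929 and below 0 in LP1, with 0 called in each line by edgeR; the unadjusted p was under 0.05 for 1 of them in AMO1, 0 in H929 and 1 in LP1. The 4 genes of the chromosomal passenger complex, which carries Aurora kinase B to centromeres and then to the midzone, lay between -0.04 and 0.08 in AMO1, 0.01 and 0.14 in H929, and -0.04 and -0.02 in LP1, also with 0 called and an unadjusted p under 0.05 for 0, 2 and 0 of them. In H929 their nearest value to the threshold was INCENP (log2 fold change 0.14, adjusted p = 0.0829 from edgeR), the scaffold of the complex.

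Of the 10 genes of the central spindle and cytokinesis, CIT rose in AMO1 and H929 and the other 9 were not called without the block. Of all genes, 1.64% and 3.7% were called higher in these 2 lines. With the block ANLN, KIF20B and KIF4A were called in AMO1, where 6.08% of all genes were called in either direction. The values of the 10 were above 0 for 10 of 10 in AMO1 (median 0.15), 7 of 10 in H929 (median 0.06) and 2 of 10 in LP1 (median -0.08). Of all genes tested, 46.5%, 47.9% and 49.7% were above 0. The 2 above 0 in LP1 were CIT and PRC1, the microtubule cross-linker; PRC1 shares 3181 of its 5523 exon bases with another gene on the same strand. ANLN, the anillin scaffold of the cleavage furrow, had the highest AMO1 value of the other 48 genes, 0.19.

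The 8 genes of mitotic entry and exit were the role whose values were lowest in LP1, all 8 below 0 (median -0.13). Of all genes tested in LP1, 49.7% were above 0. Among the 8, 5 were separate between the labels and lower under gN1E, against 8.93% of all genes. CDK1, the kinase that drives entry, had 79.9, 82.9 and 78.1 CPM under gN1E and 85.7, 91.1 and 100.3 CPM under SCR in H929. Its gN1E libraries were all below its SCR libraries, and it fell by 0.20 on the log2 scale (SE 0.0551, adjusted p = 0.0271 from edgeR). It missed the threshold with limma-voom (adjusted p = 0.0659), with the joint fit of 18 libraries (adjusted p = 0.095), with the replicate block (adjusted p = 0.065), with the span trend removed (adjusted p = 0.0522) and without any of the libraries labelled H929 SCR C, gN1E A, gN1E B or gN1E C (adjusted p from 0.07 to 0.153). CCNB1, the cyclin partner of CDK1, had 247, 245 and 209 CPM under gN1E and 263, 259 and 259.7 CPM under SCR in LP1 (log2 fold change -0.16, SE 0.0561, adjusted p = 0.207 from edgeR). CDC25B, a phosphatase that activates CDK1, had 252, 255 and 253 CPM under gN1E and 288, 282 and 262 CPM under SCR in LP1, separate groups at -0.13 (adjusted p = 0.206 from edgeR). Without the library labelled LP1 SCR D, CDC25B passed (adjusted p = 0.0345 from edgeR), as did PLK1, the Polo kinase. CDC20 had the lowest AMO1 value, -0.09 (adjusted p = 0.619 from edgeR), with 68.5, 62.1 and 65.4 CPM under gN1E and 69.9, 65.3 and 73.9 CPM under SCR.

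The 4 genes of chromatid separation (ESPL1, PTTG1, SGO1 and SGO2) and the 2 of chromosome structure (MKI67 and TOP2A) had 0 calls in each line by edgeR without the block, with which SGO2 was called in AMO1 (adjusted p = 0.0484 from edgeR). Without it there was an unadjusted p under 0.05 for SGO2 in AMO1, MKI67 in H929, and SGO2 and TOP2A in LP1. SGO2 had 66.1, 68.0 and 73.5 CPM under gN1E and 57.0, 63.8 and 64.2 CPM under SCR in AMO1, and 64.3, 63.0 and 55.3 CPM under gN1E and 65.9, 66.4 and 70.6 CPM under SCR in LP1. The groups were separate in both lines and in opposite order (log2 fold change 0.17 and -0.15). PTTG1, which encodes securin, has near-identical copies elsewhere in the genome, so its values are uncertain.

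Whether a fold change differed between lines was tested in a joint fit of the 18 libraries. Between AMO1 and LP1, 3 of 52 genes differed, against 0.741% of 26436 genes: KIF11 by 0.40 (SE 0.0712, adjusted p = 0.00175 from edgeR), TPX2 by 0.37 (SE 0.0692, adjusted p = 0.003) and CIT by 0.31 (SE 0.0698, adjusted p = 0.0193), all higher in AMO1. ANLN (0.31) and SGO2 (0.34) both had an adjusted p of 0.0507 from edgeR, and HJURP (0.20) one of 0.19. ANLN and SGO2 were called with RLE size factors and with DESeq2 (adjusted p from 0.00504 to 0.0394), and HJURP with DESeq2 (adjusted p = 0.0135). Between H929 and LP1, 2 differed, against 0.874% of genes: TPX2 by 0.39 (SE 0.0691, adjusted p = 0.00124) and CIT by 0.34 (SE 0.0698, adjusted p = 0.0075). KIF11 differed by 0.26 (adjusted p = 0.0909 from edgeR), and it was called with DESeq2 (adjusted p = 0.045) and without the library labelled AMO1 SCR A (adjusted p = 0.0465 from edgeR). Between AMO1 and H929, 0 of 52 differed by edgeR, against 0% of genes; 6 of the 52 had an unadjusted p under 0.05, and limma-voom and DESeq2 also called 0. The 95% interval of that difference ran from 0.01 to 0.29 for KIF11, -0.15 to 0.12 for TPX2, -0.16 to 0.11 for CIT and -0.06 to 0.19 for HJURP. The call for CIT between AMO1 and LP1 was lost without any of the libraries labelled AMO1 SCR A, AMO1 gN1E D, LP1 SCR B or LP1 gN1E B, which left 2 or 3 genes called, and with scaling by library size only, which also lost CIT between H929 and LP1 (0.23, adjusted p = 0.21 from edgeR). This fit left out the replicate letter. With the letter as a block within AMO1, a fit added after the data were seen, 5 genes differed between AMO1 and LP1, against 0.972% of all genes: the same 3, ANLN (adjusted p = 0.0285 from edgeR) and SGO2 (adjusted p = 0.0208). Between H929 and LP1, 3 differed, against 1.31%, with KIF11 the third (adjusted p = 0.0476 from edgeR). The NEAT1 difference itself was smaller in LP1 (log2 fold change 2.14, SE 0.19) than in AMO1 (2.66, SE 0.0744) and H929 (2.74, SE 0.0683), and its part in these differences was not tested.

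Taken library by library, the median log2 deviation of the 4 targets from the SCR mean of the line was 0.34, 0.28 and 0.34 in the AMO1 gN1E libraries A, C and D, and -0.05, -0.01 and 0.04 in the SCR libraries. In H929 it was 0.32, 0.30 and 0.28 under gN1E and -0.05, 0.03 and 0.01 under SCR. In LP1 it was 0.07, 0.03 and 0.04 under gN1E and -0.04, 0.02 and 0.04 under SCR. The gN1E libraries were above all SCR libraries in AMO1 and H929 and overlapped them in LP1. For the other 48 genes, AMO1 gave 0.08, 0.03 and 0.14 under gN1E and -0.09, 0.01 and 0.06 under SCR, overlapping groups in which gN1E was the higher of the pair for each letter. H929 gave 0.02, 0.02 and -0.02 under gN1E and -0.05, 0.01 and 0.03 under SCR, which overlap. LP1 gave -0.05, -0.04 and -0.14 under gN1E and 0.00, -0.01 and 0.03 under SCR, with every gN1E library below every SCR library. In bulk libraries a change in the share of cells in mitosis and a change in RNA per cell cannot be told apart.

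**Figure D3:**
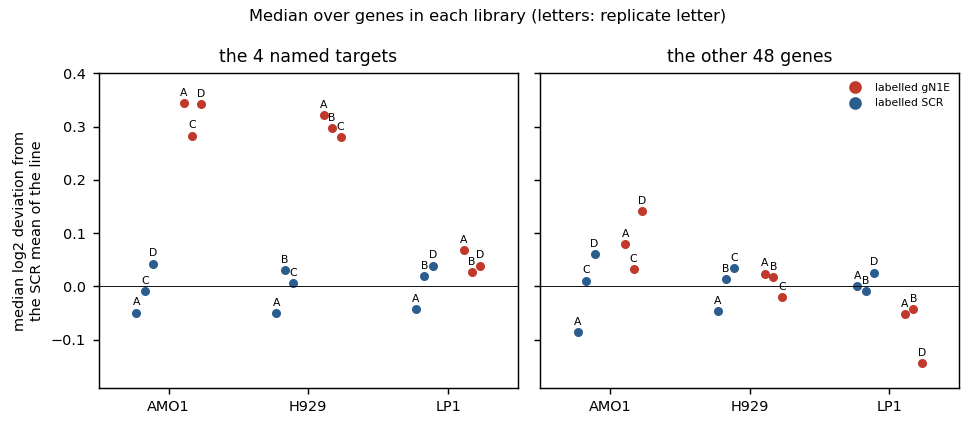
Median log2 deviation from the SCR mean of the line (vertical axis) over the 4 named targets and over the other 48 genes, for each library, with its replicate letter. The targets sit between 0.28 and 0.34 in the gN1E libraries of AMO1 and H929, while the other genes stay between -0.14 and 0.14 in all 18 libraries.

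At least 14 bases of the NEAT1 segment were present in 2 of 52 genes (3.85%), against 21 of 14772 other genes (0.14%) and 14 of the 11090 whose genomic span lay within the range of the set (0.13%). The 2 genes, KIF11 and TPX2, are targets the study chose on the AMO1 libraries. The segment was picked from AMO1 fold changes too, so the higher share among the 52 is not independent of these choices and supports nothing. At least 13 bases were present in 2 of 52 as well, against 0.51% of other genes, and at least 12 bases also in 2 of 52, against 2.17%. At least 11 bases were present in 5 of 52 (9.62%), against 9.23% of other genes; these lengths were set after the matches of the 52 genes had been seen. The 5 were KIF11, TPX2, CIT, ASPM and CDC25B. ASPM, a spindle pole protein, and CDC25B were not called in the edgeR fit of any line with all its libraries. CDC25B passed in LP1 without the library labelled LP1 SCR D (adjusted p = 0.0345 from edgeR). Outside the set, the 21 genes with at least 14 bases had medians of 0.29 in AMO1, 0.33 in H929 and 0.12 in LP1 on the log2 fold change scale. Their AMO1 fold changes helped choose the segment, so a high AMO1 value is fixed by that choice and supports nothing. KIF11 and TPX2 had a joint median of 0.38, 0.30 and 0.01. KIF18B, called in H929, had 9 bases, and CDK1 had 8. The match was compared as a description only, since the sequence of the gapmeR was not used here, and its part in the fold changes was not tested.

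**Figure D4:**
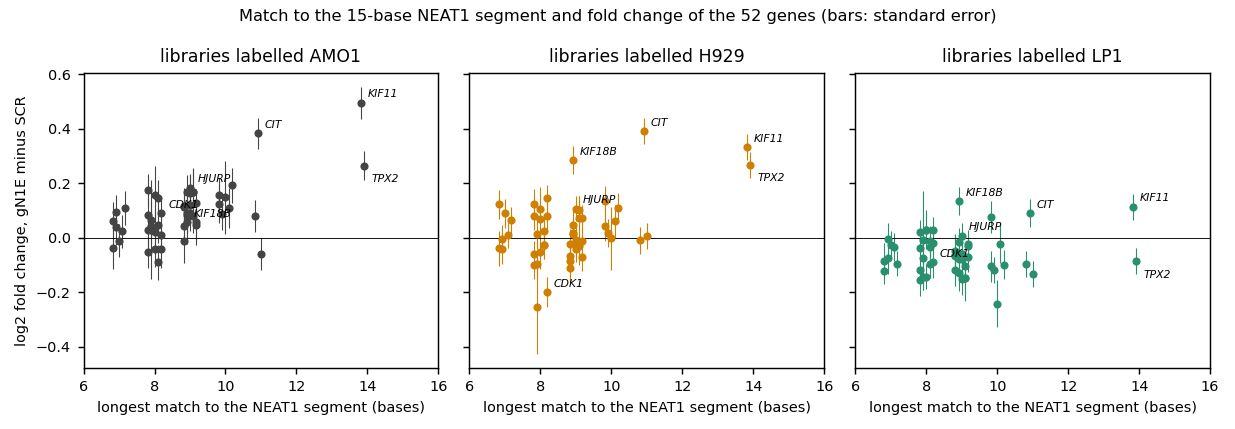
Longest run of bases shared with the 15-base NEAT1 segment (horizontal axis, in bases) and log2 fold change (vertical axis, with standard error) of the 52 genes in each line. KIF11 and TPX2 at 14 bases and CIT at 11 are the highest points of AMO1, with ASPM and CDC25B also at 11 near 0; in LP1 TPX2 lies at -0.09.

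The median genomic span was 32.0 kb for the 52, 71.9 kb for the 4 targets and 14.3 kb for all genes tested. Across the 52 genes Spearman's correlation of span with log2 fold change was 0.58 in AMO1, -0.03 in H929 and 0.11 in LP1, a description over genes that share libraries. With the trend of each library with genomic span removed, KIF11, TPX2 and CIT remained called in AMO1 and HJURP passed as well (adjusted p = 0.021 from edgeR), while in H929 CDK1 was lost and 4 of the 5 calls were left.

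Promoters of 44 of the 52 genes were matched in RefSeq (GRCh38.p14). The CHR element was searched as TTTGAA or TTCGAA and the CCAAT box as CCAAT, both on either strand, in the 250 bases before the start; neither set of letters overlaps the other, and TTCGAA reads the same on both strands. A CHR was present in 23 of 44 promoters (52.3%), against 14.3% of 35116 promoters, and a CCAAT box in 33 (75%), against 32%. Both were present in 20 (45.5%), against 5.05%. The sites of the named targets with a CHR are shown because they differ in where the element lies; the capitals mark the CHR as it reads on the gene's strand.
KIF11, chr10:92593090-92593119, plus strand: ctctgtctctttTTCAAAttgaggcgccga
CIT, chr12:119877511-119877540, minus strand: gtaaccgccaatTTCAAActtccaagacct
HJURP, chr2:233854629-233854658, minus strand: gacgcaaatttgTTTGAAaggcccaatcag
The CHR starts 28 bases before the RefSeq start in KIF11, 208 in CIT and 111 in HJURP. PLK1 and CCNB2, which were not called in the edgeR fit of any line with all its libraries, carry theirs at 29 bases each. PLK1 passed in LP1 without the library labelled LP1 SCR D. A match describes letters and not a site in use. AURKA, BIRC5, BUB3, KNL1, RACGAP1, TPX2, TTK and UBE2C were not matched.

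More of the genes differed in level between lines than between gapmeR labels, as was true of all genes. Of all genes, 37.9% were called higher and 37.9% lower in AMO1 than in LP1, against 1.64% and 0.419% between labels in AMO1. The comparisons between lines used 6 libraries per line and those between labels 3 per label. Per kilobase of exon, the highest mean levels over the 3 lines were those of UBE2C (83.9 CPM per kb), the ubiquitin-conjugating enzyme of the anaphase promoting complex, CCNB1 (78.3) and TOP2A (66.6), the topoisomerase that untangles chromatids. The lowest were those of NUSAP1 (0.597), PRC1 (2.82) and CIT (3.27). The low values of NUSAP1 and PRC1 go with the exon bases they share with other genes, and the exons annotated for CIT add up to 28605 bases. UBE2C stood at 59.4 CPM per kb in AMO1, 58.3 in H929 and 134 in LP1, CCNB1 at 63.1, 60.7 and 111, and TOP2A at 71.1, 58.5 and 70.1. UBE2C and CCNB1 were thus highest in LP1 and TOP2A lowest in H929.

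**Figure D5:**
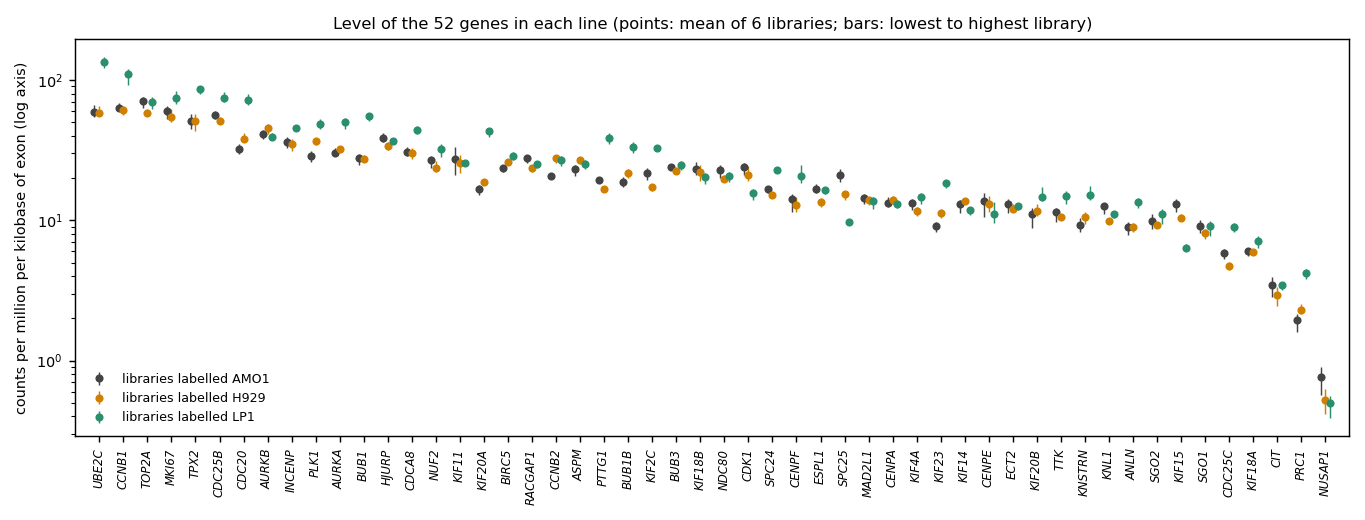
Level of each of the 52 genes in CPM per kilobase of exon (vertical log axis), by line label; points are means of 6 libraries and bars run from the lowest to the highest library. UBE2C, CCNB1, CDC20, BUB1, KIF20A and PTTG1 lie higher in LP1, and SPC25, KIF15 and CDK1 lower.

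Between AMO1 and LP1, averaged over both gapmeR labels, 11 genes were higher and 31 lower in AMO1, against 37.9% and 37.9% of all 26436 genes. Between H929 and LP1, 7 were higher and 37 lower in H929, against 38.4% and 36.2%. Between AMO1 and H929, 23 were higher and 11 lower in AMO1, against 21.2% and 23.2%. Scaling by library size only gave splits of 21 and 26, 16 and 26, and 21 and 12, and moved the median of all genes from 0.02 to 0.20 for AMO1 minus LP1 and from 0.05 to 0.24 for H929 minus LP1. The median of the 52 genes minus that of all genes was -0.30 and -0.35 under either scaling. The names inside the tables exchange H929 with LP1, so which of these lines had the higher level rests on the sample labels.

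Higher in LP1 than in both other lines were 29 genes, of which 23 were still called with library size only. With that scaling KIF18A, KIF20B and NUF2 lost the call, and BIRC5, KIF4A and SGO2 turned. Of all genes, 37.9% were called lower in AMO1 than in LP1 and 36.2% lower in H929 than in LP1. The share of all genes that met both conditions is not given here. Among genes higher in LP1, the largest differences of AMO1 minus LP1 on the log2 scale were those of KIF20A (-1.36, SE 0.0366), the kinesin of the midzone, UBE2C (-1.17, SE 0.0422), CDC20 (-1.16, SE 0.0424) and PRC1 (-1.12, SE 0.0624). For H929 minus LP1 they were PTTG1 (-1.21, SE 0.0427), KIF20A (-1.20, SE 0.0363) and UBE2C (-1.20, SE 0.0421). TPX2 was lower by the same -0.76 in both. Lower in LP1 than in both were 5 genes: SPC25, a kinetochore subunit (AMO1 minus LP1 1.12, SE 0.0481), KIF15, a spindle kinesin able to stand in for KIF11 (1.02, SE 0.0423), CDK1 (0.60, SE 0.0446), CENPE (0.33, SE 0.0953) and KIF14, which recruits CIT to the midzone (0.14, SE 0.0403). With RLE size factors 4 of these 5 genes were called. Of all genes, 37.9% were called higher in AMO1 than in LP1 and 38.4% higher in H929 than in LP1. KIF11 itself did not pass between H929 and LP1 (-0.02, SE 0.0356).

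By role, mitotic entry and exit had 7 of 8 genes lower in AMO1 than in LP1 (median -0.68) and 6 of 8 lower in H929 than in LP1 (median -0.70), against 37.9% and 36.2% of all genes called lower. The checkpoint had 3 of 5 and 4 of 5 lower (medians -0.39 and -0.52). The centromere and kinetochore genes had 5 of 9 higher and 3 lower in AMO1 than in LP1 (median 0.07), against 37.9% of all genes in each direction. Chromatid separation had 4 of 4 lower in H929 than in LP1 (median -0.26), with PTTG1 the farthest.

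Other genes of the same pathways were counted from lists of related function. Of 29 other centromere and kinetochore genes, 1 rose in AMO1, 3 in H929 and 1 in LP1, against 1.64%, 3.7% and 0.656% of all genes called higher, and 0 fell. ZWILCH, part of the complex that brings dynein and checkpoint proteins to kinetochores, was called in all lines, with 36.7, 38.0 and 38.2 CPM under gN1E and 17.5, 18.3 and 19 CPM under SCR in AMO1. Its libraries were separate in each line, with a log2 fold change of 1.04 (SE 0.0713, adjusted p = 8.66e-09 from edgeR) in AMO1, 0.95 (SE 0.0571, adjusted p = 9.92e-13) in H929 and 0.40 (SE 0.0708, adjusted p = 0.00873) in LP1. CENPP (0.35) and CENPM (0.22) rose in H929 only by this test, and the difference between lines was not tested for them. The anaphase promoting complex (15 genes), condensin and cohesin (13) and the augmin and gamma-tubulin complexes (14) had 0 called in any line by edgeR; of these 42 genes, 9, 9 and 5 had an unadjusted p under 0.05 in AMO1, H929 and LP1, limma-voom called 0, and DESeq2 called 1 in H929. Of 13 regulators of G2/M transcription, 1 rose in AMO1, 3 in H929 and 0 in LP1, against 1.64%, 3.7% and 0.656% of all genes called higher. TFDP2, the dimer partner of E2F factors, rose in AMO1 (0.36, adjusted p = 0.0016 from edgeR) and H929 (0.35, adjusted p = 2.78e-05). FOXM1 (0.20), a driver of the mitotic programme, and E2F4 (0.16, adjusted p = 0.0493 from edgeR) rose in H929, where limma-voom did not call E2F4 (adjusted p = 0.0753), and 0 were called in LP1 by edgeR, limma-voom or DESeq2, with 2 at an unadjusted p under 0.05. Of 20 G1/S genes, CCNE1 (0.20), E2F2 (0.17) and MCM5 (0.17) rose in H929, against 3.7% of all genes called higher; limma-voom called 1 of the 20 there and DESeq2 4. In AMO1 and LP1, 0 were called by edgeR, limma-voom or DESeq2, with 9 and 3 at an unadjusted p under 0.05.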

How the data were processed

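The authors aligned read pairs (150 bases each) against hg38 using STAR 2.7.10a and deposited raw counts per gene made by featureCounts 1.6.4 on GENCODE release 43, per the labels and the study's methods. From these counts, edgeR 4.0.16 in R 4.3.3 (TMM, robust quasi-likelihood test, Benjamini-Hochberg over all genes tested, threshold 0.05) was run line by line, keeping a gene where any of the 6 libraries held 10 reads or more, and jointly on 18 libraries for differences between lines. The fit was tested on simulated data, where the share of false calls was above the nominal threshold; the limit at which that test stops was widened after its first run. CPM values use TMM-scaled library sizes, and 95% intervals are 1.96 standard errors on either side. With 3 libraries per label, an exact permutation test cannot give a two-sided p under 0.1. In AMO1, deviations from the group means correlated between same-letter libraries at 0.234, 0.205 and 0.136. They correlated at -0.077 to 0.203 in LP1 and at -0.124 to -0.024 in H929. Libraries of different letters were not compared, so whether the letters pair the AMO1 libraries is not settled. Alternatives were RLE factors, library size only, 2 other filters, limma-voom 3.58.1 (the study's tool), DESeq2 1.42.0, the letter as a block (also within AMO1 in the joint fit, chosen after seeing the data), removal of the span trend, the joint fit, a 1.5-fold limit at an adjusted p of 0.1, and leaving out each library. Named genes were NEAT1, the 4 targets, every gene called in a line or between lines, the 3 highest and 3 lowest fold changes per line, the 3 highest and 3 lowest levels per kilobase, and up to 3 called genes of each other list; others named with a value (ANLN, SGO2, INCENP, PLK1, KIF20A and the like) were chosen after their values were seen. The genes, lists and tests were chosen with earlier results of these data known. Sequences came from hg38 and RefSeq, and gene parts from GENCODE release 44.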

Additional observations from a re-analysis of the deposited data

Results flagged for a closer look

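Of the 52 genes, 3 had a fold change that differed between cell lines by the interaction test. Between AMO1 and LP1 the log2 fold changes (libraries labelled gN1E minus SCR) differed by 0.402 for KIF11, 0.37 for TPX2 and 0.312 for CIT. These 3 are targets the study chose on the AMO1 libraries, so their differences from AMO1 are not independent of that choice. Between H929 and LP1 they differed by 0.388 for TPX2 and 0.336 for CIT. All were higher in the first line of the pair. Over all 52 genes, the difference was above 0 for 50 between AMO1 and LP1 and for 46 between H929 and LP1. Groups held 3 libraries each, too few for a test of single outlying libraries.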

How the results depend on the processing

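Counts of calls among the 52 genes changed as follows. In AMO1, 3 became 9 with the replicate letter as a block, and with a limit of adjusted p under 0.1 with a 1.5-fold change 0 genes passed in AMO1 and 0 in H929. The study's supplementary methods state that limit, while its results give an FDR under 0.05. The largest AMO1 change of the 52 was that of KIF11, at 1.41-fold. In LP1, 0 became 1 (CENPE) with no filter on low counts. Genes whose fold change differed between AMO1 and LP1 rose from 3 to 5 with RLE size factors, 5 with no filter, 7 with DESeq2 and 5 with the replicate block for AMO1 letters, and fell to 2 with library size only; those differing between H929 and LP1 went from 2 to 1 with library size only, 3 with no filter, 3 with DESeq2 and 3 with that block, which was chosen after seeing the data. The median of the 52 genes in H929 became -0.033 with library size only, where the median of all genes was -0.055. Leaving out each library in turn gave 2 to 3 calls in AMO1, 4 to 5 in H929, 0 to 2 in LP1, and 2 to 5, 0 to 0 and 2 to 3 genes differing between AMO1 and LP1, AMO1 and H929, and H929 and LP1. The replicate block gave 4 calls in H929 and 0 in LP1, where same-letter libraries correlated at -0.124 to -0.024 and at -0.077 to 0.203, and changed no call there but that of CDK1 (adjusted p = 0.065 from edgeR). KIF11 and CIT in AMO1, and KIF11, CIT, TPX2 and KIF18B in H929, passed under all 15 refits each.

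Among the named genes, signs turned only for genes and lines without a call. CCNB1 in AMO1 became 0.00109 with the span trend removed. With library size only, NUSAP1 became -0.00716 in AMO1 and 0.0184 in LP1, and CDC20 -0.0196 and CDC25B -0.0399 in H929; that scaling moved the medians of all genes to -0.054 in AMO1, -0.055 in H929 and 0.027 in LP1. CENPE in H929 became 0.000462 with RLE factors, 0.00244 with no filter and 0.00912 in the joint fit, and HJURP in LP1 became -0.0148 in the joint fit. Leaving out libraries, KIF18B in AMO1 ran from -0.0214 to 0.15 and NUSAP1 from -0.156 to 0.166, CDC20 in H929 from -0.0242 to 0.0683, CDC25B from -0.0247 to 0.0323 and CENPE from -0.105 to 0.084, HJURP in LP1 from -0.0132 to 0.0245, NUF2 from -0.118 to 0.0013 and NUSAP1 from -0.123 to 0.122. The cause was not tested. The limit on p and fold change gives no value of its own for a median. Counts limit NUSAP1 most, with 59 in the library where it had fewest.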
